A study of Mus musculus with 16 samples.

Results

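The mouse miRNAs miR-451, miR-144 and miR-486 (mmu-miR-451, mmu-miR-144 and mmu-miR-486 on the arrays) are microRNAs (miRNAs) of red cell precursors, and their array signals were read here as a measure of erythroid RNA in sorted myeloid and dendritic cells. The 3 were chosen by name from the 604 mouse miRNAs carried by both array designs used. No cut on a measured value was applied, but earlier results of these data were known. miR-451 was measured in most populations, miR-486 stood near background, and miR-144 was not well above background on any of the 16 arrays.

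There were 8 populations, sorted from C57Bl/6 female animals 6 weeks old and never cultured, with 2 biological replicates each. From spleen, in pools of 8 mice enriched on CD11c beads, came CD8+ dendritic cells (DC), also gated on CD86, CD4+ DC and CD4-CD8- DC. From bone marrow after a Ficoll step, in pools of 5 mice, came plasmacytoid DC (PDC; B220+, CD11c intermediate, Siglec H+, CD317+) and Gr1+ monocytes (CD11b+ CD115+). From marrow treated with a red cell lysis buffer, in pools of 15 mice, came 3 progenitors that were CD135+ and lacked lineage markers: common DC progenitors (CDP; CD117 low, CD115+), macrophage and DC progenitors (MDP; CD117+, CD115+) and cells labelled MP (CD117+, CD115-), a name the labels do not spell out. The erythroid surface antigen Ter-119 stands in the listed markers of the 3 progenitor sorts and of no other population. Tissue, pool size and the step against red cells therefore moved with population and cannot be told apart from it. Array design 1 carried replicate 1 of all populations, and design 2 carried replicate 2. With pools of animals as replicates, the p-values cover the spread between 2 pools per population. In RNA from sorted bulk cells, fewer cells of a type and less RNA per cell cannot be told apart.

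A miRNA is a short RNA that guides Argonaute proteins to messenger RNAs, and the pairing of its seed (bases 2 to 8) largely sets which ones. miR-144 and miR-451 are cut from a shared primary transcript, which the erythroid transcription factor GATA1 switches on as red cells mature. miR-451 is known as a very abundant miRNA of red cells, and its hairpin is cut by Argonaute 2 in place of Dicer. miR-486 comes from the gene of ankyrin-1, a red cell membrane protein, and is also made in muscle.

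The mature sequences of the pair that share a transcript follow, from RefSeq on GRCm38.p6, with the seed in capitals, since the probes read these RNAs. Both are on the plus strand, miR-451 at chr11:78073186-78073207 and miR-144 at chr11:78073047-78073066.
mmu-miR-451a: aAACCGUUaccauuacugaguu
mmu-miR-144-3p: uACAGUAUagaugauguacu
Each seed occurred in 1 of the 1738 mature mouse miRNAs of the RefSeq table, so neither miRNA shares its seed with another entry or with the other.

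Their hairpins lie 99 bases apart, Mir144 at chr11:78073005-78073070 and Mir451a at chr11:78073170-78073241. They are shown because the place of the mature miRNA in the hairpin, in capitals, differs between them.
Mir144 hairpin: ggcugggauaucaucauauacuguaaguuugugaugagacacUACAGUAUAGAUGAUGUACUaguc
Mir451a hairpin: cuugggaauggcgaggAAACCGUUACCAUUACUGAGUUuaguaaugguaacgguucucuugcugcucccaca
Mature miR-144 began at base 43 of its hairpin of 66 bases, in the 3′ arm, and mature miR-451 at base 17 of 72, in the 5′ arm, from which it is known to run on into the loop. The short gene Mir451b is annotated on top of Mir451a, on the opposite strand.

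Each of the 3 was read by 2 probes of 10 spots, nested in each other, with these sequences in the files. The probes are shown because their length and base composition set how they capture RNA, and their positions are those of the files on mm9.
miR-451 probe of 22 bases: aactcagtaatggtaacggttt
miR-451 probe of 21 bases: aactcagtaatggtaacggtt
miR-144 probe of 20 bases: agtacatcatctatactgta
miR-144 probe of 19 bases: agtacatcatctatactgt
miR-486 probe of 14 bases: ctcggggcagctca
miR-486 probe of 13 bases: ctcggggcagctc
The files place the longer probes of miR-451, miR-144 and miR-486 at chr11:77886689-77886709, chr11:77886550-77886568 and chr8:24253068-24253080, each span 1 base shorter than its probe. In RefSeq, Mir486 lies within Ank1 and within the predicted gene Gm15816. The complement of each miR-451 and miR-144 probe matched 1 mature miRNA of the table, its own. Those of the miR-486 probes matched 0 of its 1738 entries. The table holds no mature miR-486, so a match to their own target could not be checked. The miR-486 probes are short and GC-rich, with 71.4 and 76.9 percent G or C, against 38.1 and 36.4 percent for miR-451 and 31.6 and 30.0 percent for miR-144.

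The signals below are Agilent's background-subtracted intensities, averaged over the spots of both probes, on a linear scale. For comparisons each array was scaled by a factor of 333 to 876, the 75th percentile over the 88 miRNAs seen on every array, raised to a floor where lower, and logged. Detection on an array required that 0.5 or more of the spots of either probe were well above background. On each array 116 to 174 miRNAs were detected, and 16.7 to 25.4 percent of the non-control spots were well above background. Populations were compared with limma over 175 miRNAs, those found on both arrays of some population, and a difference was called where the p adjusted by Benjamini-Hochberg was under 0.05. Of the 3 erythroid miRNAs, 2 passed that filter, miR-451 through 6 populations and miR-486 through CD8+ DC alone. The sorts were checked against marker miRNAs. miR-223, a myeloid miRNA, averaged 4.42 ± 0.17 on the log2 scaled signal in Gr1+ monocytes and 0.30 ± 0.30 in PDC (SD, n = 2 each). It was also at 3.29 in CD8+ DC and at 3.27 in MDP. miR-126-3p, a progenitor miRNA, was at the floor in CD8+ DC and at -1.62 in MP cells. Of the plasmacytoid or lymphoid miRNAs, miR-181a was highest in PDC, at 0.72. miR-150 did not set PDC apart, at -0.83 there and -0.73 in CD4-CD8- DC.

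On the scaled signal miR-451 was highest in CD8+ DC on both designs. Unscaled, it was highest in CD4+ DC on design 1 and in PDC on design 2. In CD8+ DC its signal was 486 in replicate 1 and 239 in replicate 2, in CD4+ DC 630 and 185, and in CD4-CD8- DC 116 and 88.3. All 6 spleen arrays were well above background, and CD4-CD8- DC were the lowest of the spleen populations on both designs. In PDC the signals were 59.2 and 301, both detected. In Gr1+ monocytes they were 14.7 and 20.2, of which only replicate 2 was detected. CDP gave 20.5 and 14.0, both detected but faint. MDP gave 11.1 and 9.47, neither detected. MP cells gave 218 and 15.1, both detected, so that replicate 1 lay among the spleen DC and replicate 2 near background. Against the negative control spots of the same array, which averaged 3.18 to 5.74, miR-451 lay 212 SD of those spots above their mean in CD4+ DC replicate 1, and 1.77 SD above in MDP replicate 1.

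On the log2 scaled signal miR-451 averaged -0.32 ± 0.90 in CD8+ DC, -1.06 ± 1.09 in CD4+ DC, -2.45 ± 0.28 in CD4-CD8- DC and -2.24 ± 0.99 in PDC (SD, n = 2 each). It averaged -4.86 ± 0.41 in Gr1+ monocytes, -4.95 ± 0.45 in CDP, -5.22 ± 0.11 in MDP and -3.07 ± 2.93 in MP cells, with MDP replicate 1 at the floor. The order of the means was CD8+ DC, CD4+ DC, PDC, CD4-CD8- DC, MP, Gr1+ monocytes, CDP and MDP. Gaps between neighbours in that order were 0.74, 1.19, 0.20, 0.62, 1.79, 0.09 and 0.27, against a standard error of 1.08 for the difference of a pair. The gaps of 1.19 and 1.79 alone exceeded that error. No gap reached 2 times it, so the order of neighbours is uncertain. The widest, between MP cells and Gr1+ monocytes, was smaller than the 4.14 between the MP arrays themselves. The arrays of Gr1+ monocytes, CDP and MDP were all between -5.30 and -4.57, and all 8 arrays of spleen DC and PDC lay above them.

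**Figure D1:**
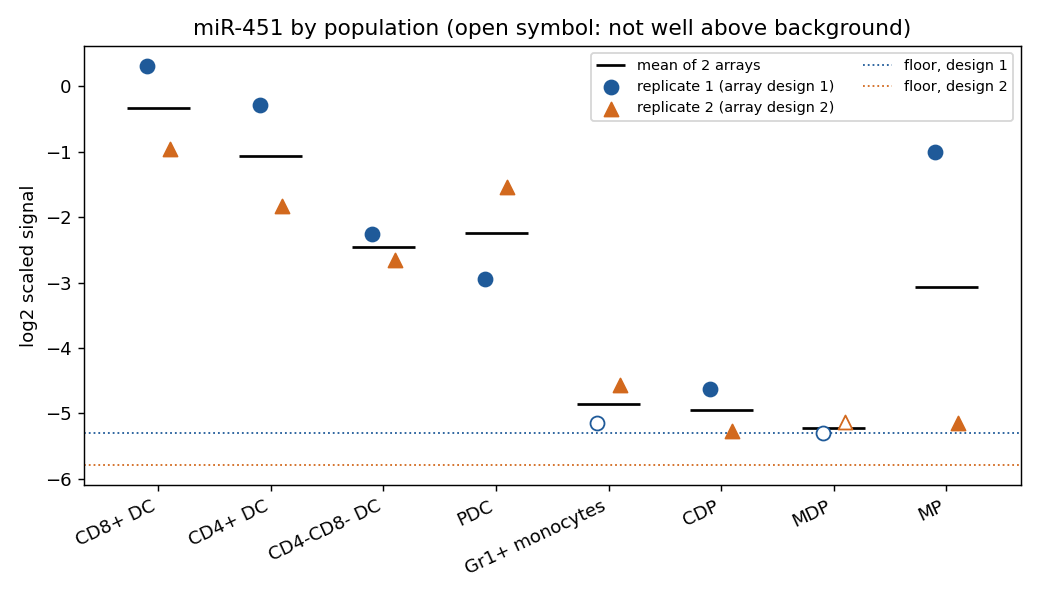
miR-451 on each array as log2 scaled signal (vertical axis) by population, with replicate 1 as circles, replicate 2 as triangles, bars for the mean of 2 arrays, dotted lines for the floor of each design, and open symbols where miR-451 was not well above background. Spleen DC and PDC lie above Gr1+ monocytes, CDP and MDP on every array, and the MP arrays lie 4.14 apart.

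Because both MDP arrays were not well above background, folds against MDP are lower bounds, with the dim side of each array set at the lowest detected probe signal or its own, whichever was higher. miR-451 was at least 20.6-fold higher in CD8+ DC, at least 12.4-fold in CD4+ DC, at least 5.44-fold in PDC, at least 4.72-fold in CD4-CD8- DC and at least 3.07-fold in MP cells. The bound for MP cells rests on replicate 1, since within design 2 they were level with MDP. For CDP the bound was under 1 and gives no fold.

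Over all 8 populations miR-451 differed, with an adjusted p of 0.0148 in limma's moderated F test, where 73.1 percent of the 175 tested miRNAs were called. It ranked 116 of 175 by p, so its differences were wide but not among the most certain. Its residual SD after population and array design was 1.19 on the log2 scale, the largest of the 175, whose median was 0.19. The p of that test was above the threshold without CD8+ DC replicate 1 (0.068) and without replicate 2 (0.0553).

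Among the 10 comparisons fitted, miR-451 showed its widest difference between spleen DC and CDP, a marrow progenitor of DC. miR-451 averaged -1.28 over the 3 spleen DC populations and -4.95 in CDP, a log2 difference of 3.67 ± 0.88 (SE) or 12.7-fold, with an adjusted p of 0.00593 in limma. The CDP arrays stood near the floor, at -4.63 on design 1 and -5.26 on design 2, so the fold rests on faint signals. The difference was 3.89 within design 1 and 3.45 within design 2, and each of the 6 spleen arrays was above the CDP array of its design. In the same comparison 56.0 percent of tested miRNAs were called, 36.6 percent as higher and 19.4 percent as lower, and the median of all tested was 0.26. The call ended without CDP replicate 1, at a difference of 3.61 and an adjusted p of 0.0503. The normexp background correction, whose offset adds 50 to every signal and so shrinks differences of faint signals, gave 1.81 (adjusted p = 0.0147).

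Across all stages, miR-451 averaged -2.19 in the 5 differentiated populations and -4.41 in the 3 progenitors. The difference of 2.22 ± 0.56 (SE), or 4.67-fold, had an adjusted p of 0.00677, where 63.4 percent of tested miRNAs were called, 38.9 percent as higher and 24.6 percent as lower. It was 1.58 within design 1, which holds the high MP array, and 2.87 within design 2. The undetected MDP arrays entered at their measured or floor values, which limits the fold. Leaving out MP replicate 1 gave 2.87, leaving out MP replicate 2 gave 1.57, and normexp gave 1.12 (adjusted p = 0.0137). The call was kept without each of the 16 arrays in turn. Gr1+ monocytes, counted here as differentiated, averaged -4.86, close to CDP and MDP.

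Between differentiated cells, miR-451 averaged -1.28 in the 3 spleen DC and -3.55 over PDC and Gr1+ monocytes, both from marrow. The difference was 2.27 ± 0.70 (SE), 4.84-fold, with an adjusted p of 0.0248, where 48.0 percent of tested miRNAs were called and 25.1 percent were higher. Within design 1 it was 3.31 and within design 2 it was 1.24. This call ended without CD8+ DC replicate 1 (2.17), CD4+ DC replicate 1 (2.12), PDC replicate 1 (1.66), Gr1+ monocytes replicate 1 (1.90) or CD4-CD8- DC replicate 2 (2.21), and with the normexp background correction (0.72, adjusted p = 0.209). The mean over PDC and Gr1+ monocytes joins unlike values, since PDC replicate 2 stood above both CD4+ and CD4-CD8- DC of its design.

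The means of PDC were above those of both marrow populations they were compared with, and neither difference passed the test. PDC averaged -2.24 and CDP -4.95, a difference of 2.70 ± 1.08 (SE) with an adjusted p of 0.0902, where 37.7 percent of tested miRNAs were called. Against Gr1+ monocytes, at -4.86, the difference was 2.61 ± 1.08 with an adjusted p of 0.0883, where 40.6 percent were called. Both differences had the same sign within both designs, 1.68 and 3.72 against CDP, and 2.20 and 3.03 against Gr1+ monocytes. Leaving out either MP array, which enters these comparisons only through the shared spread, brought the adjusted p to 0.0116 against CDP and to 0.0145 against Gr1+ monocytes. Without PDC replicate 2 the differences were 1.48 (adjusted p = 0.506) and 1.39 (adjusted p = 0.519), and with normexp 1.11 (adjusted p = 0.319) and 0.04 (adjusted p = 0.95).

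Within the spleen, miR-451 averaged -0.32 in CD8+ DC and -1.75 over the other spleen DC, a difference of 1.43 ± 0.93 (SE) with an adjusted p of 0.263, where 33.1 percent of tested miRNAs were called. It was 1.58 and 1.28 within the designs. CD4+ DC averaged -1.06 and CD4-CD8- DC -2.45, a difference of 1.39 ± 1.08 with an adjusted p of 0.596, where 4.57 percent were called. On the scaled signal the spleen populations stood in the same order, CD8+, CD4+ and CD4-CD8-, on both designs, with gaps that did not pass the test.

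In the progenitor and monocyte steps no difference was called for miR-451. MDP averaged -5.22 and MP cells -3.07, a difference of -2.15 ± 1.08 (SE) with an adjusted p of 0.289, where 10.3 percent of tested miRNAs were called. Within design 1 that difference was -4.30 and within design 2 it was 0.00. CDP differed from MDP by 0.27 ± 1.08 (adjusted p = 1.0), a comparison in which limma called 0 of 175 miRNAs, or 0.0 percent, while 26 had an unadjusted p under 0.05. Gr1+ monocytes differed from MDP by 0.36 ± 1.08 (adjusted p = 0.946), where 37.7 percent were called.

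**Figure D2:**
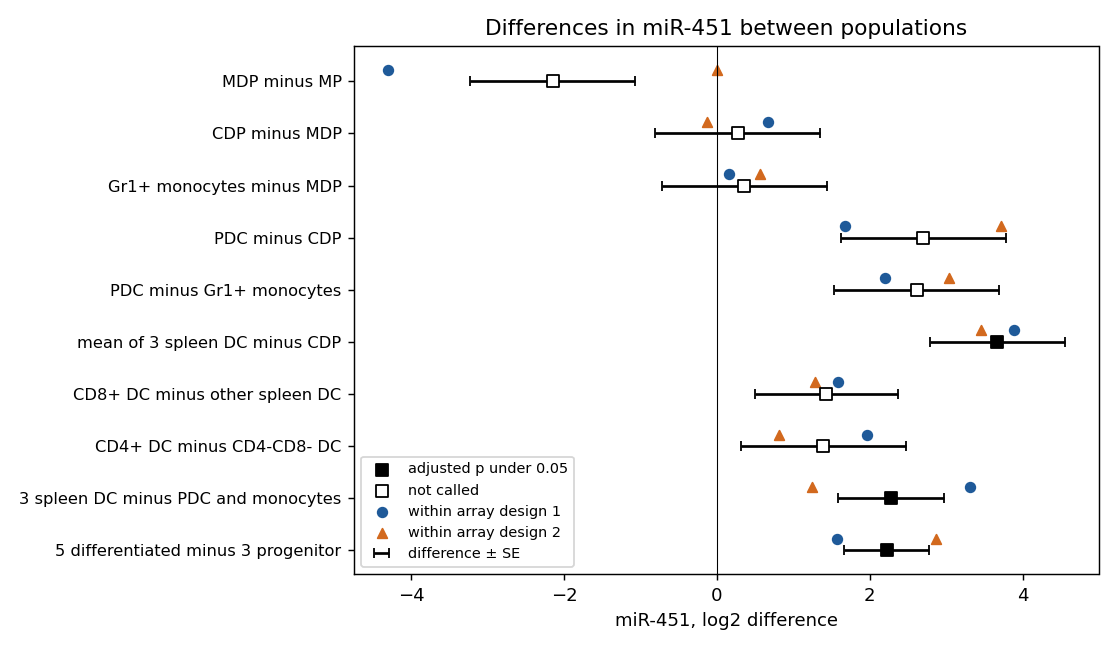
Log2 differences in miR-451 (horizontal axis) for the 10 comparisons, squares with SE bars from the fit over 16 arrays, filled where the adjusted p was under 0.05, and circles and triangles for the difference within array design 1 and 2. Spleen DC minus CDP, spleen DC minus PDC and monocytes, and differentiated minus progenitor populations were called, and MDP minus MP differed most between designs.

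The MP pools differed in miR-451 more than in any other tested miRNA. On the log2 scaled signal replicate 1 lay 4.14 above replicate 2 in MP cells. Centred on its mean gap over populations, the gap was 3.41, the widest of 175 miRNAs, and the next was miR-671-5p with 1.54. In PDC the gap was -1.41, replicate 2 being the higher, and -2.14 after centring, which takes in the MP gap. In Gr1+ monocytes and MDP the gaps before centring were -0.58 and -0.16, with both MDP arrays below detection. Each replicate is RNA of a different pool of animals, hybridised to a different design, so pool, design and slide cannot be told apart within a population.

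Other markers were read in the same pairs of arrays, with gaps centred likewise. In MP cells the 8 miRNAs abundant in red cells but also in most blood cells had gaps of -0.14 to 0.28 with a median of 0.01, and in PDC -0.63 to 0.06 with a median of -0.18. The gaps of these 8 were far smaller than that of miR-451. However, let-7a, miR-15b, miR-16 and miR-92a never read below 0.41 on the log2 scaled signal. The same added signal moves a bright miRNA less than a faint one on a log scale. Their gap sizes are therefore not comparable with that of miR-451. The 4 lymphocyte miRNAs had a median gap of -0.02 in MP cells, with miR-342-3p at 0.86, and of -0.20 in PDC. Of the 11 stromal, muscle and epithelial miRNAs, 10, among them the muscle miRNAs miR-1, miR-133a and miR-206, were detected on 0 arrays and miR-200c on 5. Of the 5 platelet and megakaryocyte miRNAs 3 were tested, and their gaps ran from -0.51 for miR-21 to 0.47 for miR-223 in MP cells and from -0.75 for miR-126-3p to 1.17 for miR-21 in PDC. The part of a difference in erythroid cells or free red cell RNA between pools was not tested.

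**Figure D3:**
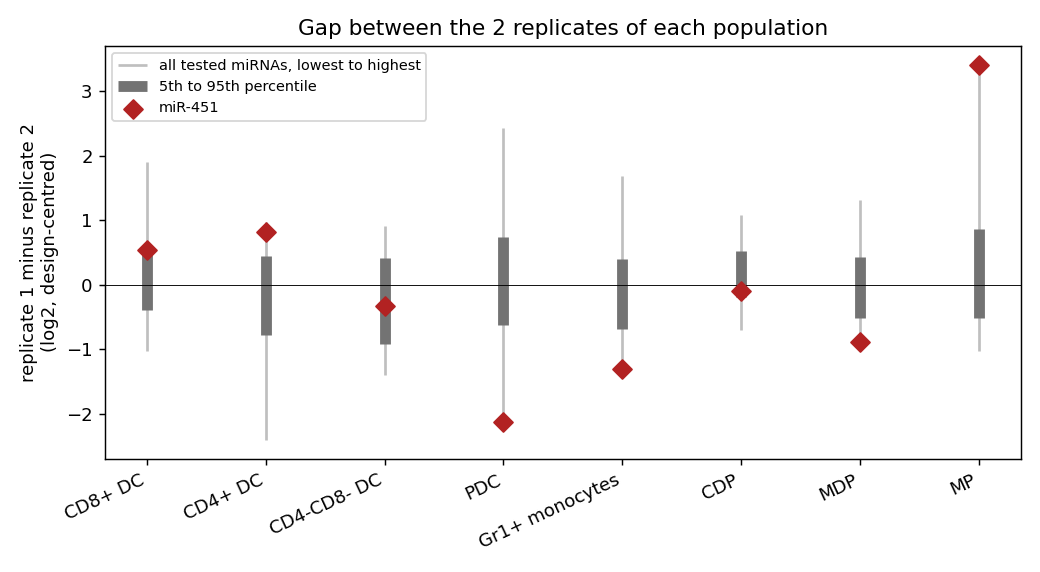
Gap between replicate 1 and replicate 2 on the log2 scale, centred on the mean gap of each miRNA over populations, by population. Diamonds are miR-451, thick bars the 5th to 95th percentile and thin lines the whole range of the 175 tested miRNAs; miR-451 marks the top of the range in MP cells, at 3.41, and its centring includes that gap.

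The probes of miR-451 moved together. The probe of 22 bases was brighter than that of 21 bases on 16 of 16 arrays, by 1.63 to 2.35 times with a median of 1.77, and the median coefficient of variation over the spots of a probe was 7.73 percent where it was detected.

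miR-486 was faint throughout. Its signal was 14.1 in replicate 1 and 15.3 in replicate 2 of CD8+ DC, 13.9 and 9.80 in CD4+ DC, and 0.46 and 6.18 in CD4-CD8- DC. In PDC it was -2.70 and 10.8, in Gr1+ monocytes 0.52 and 2.92, in CDP -2.43 and 0.49, in MDP 0.08 and 0.15, and in MP cells 14.5 and 0.59. It was detected on 3 arrays, both of CD8+ DC and MP replicate 1, each time through the probe of 14 bases, with 8 of 10, 10 of 10 and 5 of 9 spots well above background. CD4+ DC replicate 1 and PDC replicate 2 each had 2 such spots, and the probe of 13 bases passed on no array. In units of the SD of the negative control spots, miR-486 lay 2.21 and 4.52 above their mean in CD8+ DC, 3.61 and 1.99 in CD4+ DC, 2.27 in PDC replicate 2 and 2.41 in MP replicate 1.

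On the log2 scaled signal miR-486 stood at the floor on all arrays but those 3. It averaged -4.86 ± 0.09 (SD, n = 2) in CD8+ DC, and -5.54 over the floors of the designs in CD4+ and in CD4-CD8- DC. The limma difference between CD8+ DC and the other spleen DC was 0.68 ± 0.12 (SE) with an adjusted p of 0.00317, and 0.50 and 0.86 within the designs. miR-486 entered the test only through CD8+ DC, so it had to differ there, and its size was set by the floor. The unscaled signals of CD8+ and CD4+ DC were nearly level on design 1. The call ended with scaling over all miRNAs (0.23, adjusted p = 0.125), with quantile normalization (0.22, adjusted p = 0.179), with normexp (0.27, adjusted p = 0.822), with a floor higher by 1 (0.00), and without the replicate block (0.68, adjusted p = 0.146). The F test over all populations was also called (adjusted p = 0.0162), a call that ended under 7 of the other settings. In fits over all arrays no further comparison was called for miR-486, except with a floor lower by 1. Under that floor spleen DC minus CDP (adjusted p = 0.0376) and spleen DC minus PDC and Gr1+ monocytes (adjusted p = 0.0326) were called. Without CD8+ DC replicate 1 both differences were 0.30. Their lack of a call did not hold in every fit with an array left out. In the main fit spleen DC minus CDP was 0.23 ± 0.12 (adjusted p = 0.133), and differentiated minus progenitor populations 0.07 ± 0.07 (adjusted p = 0.429).

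Other faint GC-rich probes also read highest on CD8+ DC arrays. Among probes of 471 miRNAs detected on at most 8 arrays, the 90 with at least 70 percent G or C had a median signal of -0.30 in CD8+ DC replicate 1 and 0.57 in replicate 2, the highest of each design, and 6.67 and 21.1 percent of them were detected. The ranges over the other populations were -4.28 to -2.07 on design 1 and -1.63 to -0.10 on design 2. The 668 probes under 50 percent G or C had medians of -0.54 and -0.74 in CD8+ DC, the first also the highest of its design. CD8+ DC had the largest share of spots well above background on each design, 20.2 and 25.4 percent, with PDC nearly level at 25.3 percent on design 2. The part of these readings in the CD8+ DC signal of miR-486 was not tested.

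miR-144, the partner of miR-451, was measured on all arrays and well above background on none. Its highest signals were 4.80 in CD4+ DC replicate 1 and 4.39 in CD8+ DC replicate 1, then 1.86 in PDC replicate 2 and 0.76 in MP replicate 1. The other 12 arrays read between -3.49 and -0.34. Its distance to the negative control mean was between -2.82 and 0.55 of their SD, so miR-144 was not detectable on these arrays. With values at the floor throughout, it was not tested.

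**Figure D4:**
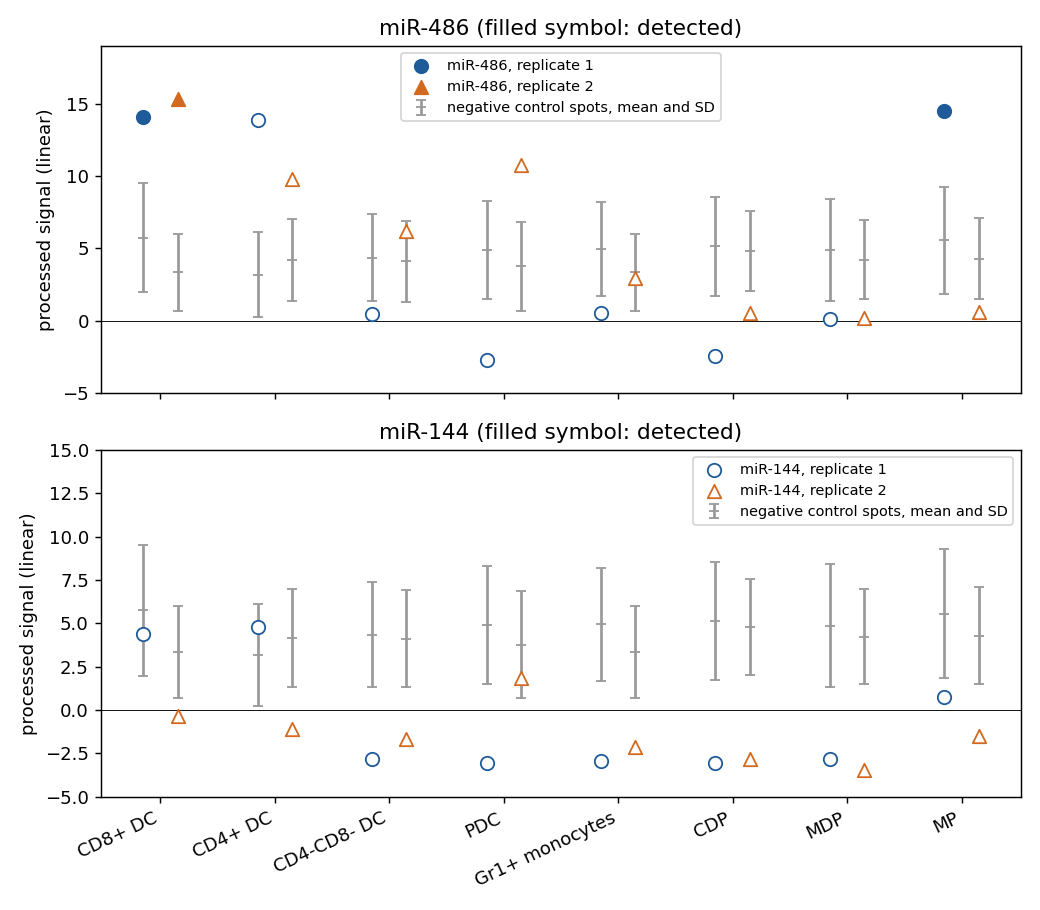
Processed signal on a linear scale (vertical axes) of miR-486 (top) and miR-144 (bottom) by population, circles for replicate 1 and triangles for replicate 2, filled where detected, with grey marks for the mean and SD of the negative control spots of each array. miR-486 was detected on both CD8+ DC arrays and MP replicate 1, and miR-144 on none.

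The order of the arrays by miR-451 can be set beside their order by the faint readings. Over the 8 arrays of design 1, Spearman's rho between the scaled signals of miR-451 and miR-486 was 0.69, and over the 8 of design 2 it was 0.90; Pearson's r was 0.86 and 0.95. For miR-451 and miR-144 rho was 0.83 and 0.79, and r was 0.99 and 0.71. These are descriptions over arrays that share slide, scaling and background, with 13 of 16 miR-486 and all miR-144 values below detection, so they do not show that these miRNAs follow miR-451. The arrays with high miR-451 outside the spleen, MP replicate 1 and PDC replicate 2, also gave the highest unscaled readings of miR-486 and miR-144 outside the spleen. Of these only miR-486 in MP replicate 1 was detected. The miR-144 readings lay below the negative control mean of their arrays, at -1.29 and -0.62 of the SD. In PDC replicate 2 the scaled miR-486 was at the floor. These readings are too faint to tell whether the miRNAs changed together, which was not tested.

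**Figure D5:**
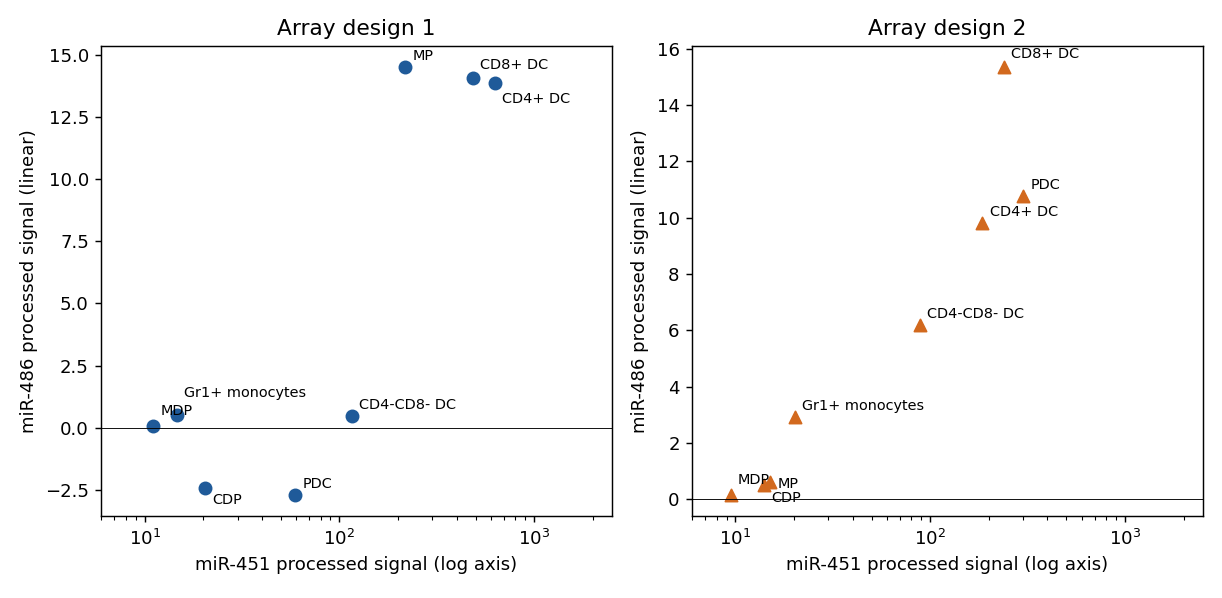
Processed signal of miR-486 (linear axis) against miR-451 (log axis) on the 8 arrays of design 1 (left) and design 2 (right), each point 1 population. MP cells lie at 218 for miR-451 and 14.5 for miR-486 on design 1, and at 15.1 and 0.59 on design 2.

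Of the 7 miRNAs of the wider erythroid list, 5 were on both designs and 3 were tested, miR-451, miR-486 and miR-210. All 3 were called in the F test, as were 73.1 percent of all tested miRNAs, but miR-486 and miR-210 passed the filter through 1 population each, where they had to differ. miR-210, which is induced by low oxygen as well as in erythroid cells, passed through Gr1+ monocytes, with signals of 20.1 and 18.8. It was also detected in replicate 2 of CD4-CD8- DC (14.1) and of PDC (19.5), and stood at the floor on all 6 progenitor arrays, so no difference of it is given. miR-363, a miRNA of the miR-106a cluster, was detected on 2 arrays, PDC replicate 2 with 23.0 and MP replicate 2 with 14.0.

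The 8 miRNAs abundant in red cells but common to blood cells were all tested. In spleen DC against CDP, 5 were called higher and 3 lower, where 36.6 percent of all tested miRNAs were higher and 19.4 percent lower, with a median difference of 0.47 against 0.26 over all tested. In differentiated against progenitor populations the counts were also 5 and 3, where 38.9 percent of all were higher and 24.6 percent lower. Of these 8, miR-22 had the smallest F test p (adjusted p = 7.02e-07). Its log2 difference was 4.88 ± 0.18 (SE, adjusted p = 2.12e-07) in spleen DC against CDP, wider than the 3.67 of miR-451. In differentiated against progenitor populations it was 4.48 ± 0.11 (adjusted p = 9.07e-09). miR-22 was detected on 12 arrays and stood at the floor on 4. The log2 difference of miR-16 between spleen DC and CDP was 0.97 ± 0.09 (SE, adjusted p = 1.34e-05), and that of miR-92a was -1.23 ± 0.09 (adjusted p = 5.26e-06). Of the 6 miRNAs known to fall as red cells mature, 2 were higher and 3 lower in spleen DC than in CDP, against the same 36.6 and 19.4 percent of all, with a median of -0.41. In differentiated against progenitor populations 1 was higher and 3 were lower, against 38.9 and 24.6 percent. These miRNAs are also made by many other blood cells, and both lists held members called in each direction.

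The tested miRNAs most alike to miR-451 over the 16 arrays, by Pearson's r of log2 values centred on their design's mean, were miR-29a (0.85), let-7f (0.83), miR-29b (0.83), miR-29c (0.82) and let-7d (0.81), of 174 compared. All 5 were detected on 16 of 16 arrays. On the log2 scaled signal miR-29a was at 1.79 and 1.61 in CD8+ DC, at 1.40 and 1.69 in PDC, at 0.04 and 0.07 in Gr1+ monocytes and at -0.38 and -0.56 in CDP. In MP cells it was at 0.22 and 0.36, without the gap that miR-451 had there. miR-486 ranked 45 with 0.57.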

How the data were processed

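RNA of 16 samples had been labelled with Cy3 and hybridised to Agilent miRNA arrays, per the labels. The intensity values are processed signals as deposited by the authors, background-subtracted by Agilent Feature Extraction, version 10.7.3.1 per the file headers and 9.1 per the submitters' processing notes. The deposited series tables hold the same signals rounded. Other upstream steps are not given in the sources used here.

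Outlier spots were left out, spots averaged per probe and probes per miRNA on the linear scale. The scaled log2 values had a floor of -5.30 on design 1 and -5.78 on design 2, the median over arrays of the 5th percentile of detected values. The fit used limma 3.58.1 (R 4.3.3), with population means and array design as a block, adjusted within each comparison over 175 miRNAs. The replicate number pairs the samples because it marks the array design. Deviations of same-numbered arrays correlated in all 28 pairs of populations (r from 0.30 to 0.92). Arrays of the same design share its floor, so this correlation shows no pairing of the pools beyond the design. Precision is limited by 2 arrays per population.

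Named were the 3 members, the other listed erythroid miRNAs and the markers used to check the sorts. Also named were up to 3 per other list with the smallest F test p, and the 5 most alike to miR-451. A few others (miR-671-5p, miR-342-3p, miR-200c, miR-21) were named after their values were seen. Members and lists were chosen with earlier results of these data known. Alternatives were other scalings, quantile normalization, normexp on mean and background signals, other detection filters, the brightest probe, other floors, no block, and each array left out.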

Additional observations from a re-analysis of the deposited data

How the results depend on the processing

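For miR-451, 94 of 99 results under 9 other settings kept direction and call. The F test's adjusted p was 0.0577 with normexp and 0.13 with no detection filter, and 0.00105 to 0.068 with an array left out. Spleen DC minus PDC and Gr1+ monocytes was 0.72 (normexp) and, with no filter, 2.27 at an adjusted p of 0.151, and CDP minus MDP was -0.22 with normexp, under which the called differences for miR-451 were all smaller. With an array left out, log2 differences ran from -4.10 to -0.20 (MDP minus MP), -0.24 to 0.78 (CDP minus MDP), -0.39 to 1.11 (Gr1+ monocytes minus MDP; -0.15 without MDP replicate 1), 1.48 to 3.92 (PDC minus CDP), 1.39 to 3.84 (PDC minus Gr1+ monocytes), 3.51 to 3.82 (spleen DC minus CDP), 1.66 to 2.88 (spleen DC minus PDC and Gr1+ monocytes) and 1.57 to 2.87 (differentiated minus progenitor). Without PDC replicate 1 the PDC differences were 3.92 (adjusted p = 0.0482) and 3.84. Without the replicate block no call for miR-451 changed.

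For miR-486 the F test's adjusted p was 0.63 scaled over all miRNAs, 0.658 with quantile normalization, 0.314 with normexp, 0.0894 with no filter, 0.099 with the brightest probe, 1.0 with the floor higher by 1, 0.594 without the replicate block, and 0.00394 to 0.108 with an array left out. MDP minus MP was 0.12 with normexp and ran from -0.418 to 0.026 with an array left out. With the floor lower by 1, spleen DC minus CDP was 0.81 and spleen DC minus PDC and Gr1+ monocytes 0.70, and with normexp the second of these was -0.40. Both ran from 0.16 to 0.30 with an array left out. CD8+ DC minus the other spleen DC was 0.23 (scaled over all), 0.22 (quantile), 0.27 (normexp), 0.00 (floor higher by 1) and 0.68 without the replicate block, and 0.47 to 0.89 with an array left out. Differentiated minus progenitor ran from -0.003 to 0.145. The filter for detection on all 16 arrays leaves neither miRNA. The floor fixes most miR-486 values, which accounts for the moves with the floor; for the other settings the cause was not tested.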
